A study of Mus musculus with 42 samples.

Results

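The genes described here are 10 genes of the p53 and senescence pathways, measured in the liver of old mice fed rapamycin (Rapa) or a control diet. All probes whose gene symbol in the array's platform annotation was Cdkn1a, Cdkn2a, Cdkn2b, Ccng1, Mdm2, Gadd45a, Gadd45b, Bax, Btg2 or Gdf15 were taken. This gave 15 probes for 7 of the 10 genes, among 16027 annotated probes for 11615 genes. No probe is named Bax, Btg2 or Gdf15 in that annotation, and these 3 genes were not analysed here.

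Each of 42 C57BL6/N mice gave 1 liver sample for 1 Illumina Mouse Ref8 array. There were 11 Rapa females, 9 control females, 12 Rapa males and 10 control males. Rapa mice ate a diet with 14 ppm of encapsulated rapamycin, an inhibitor of the kinase mTOR, for 6 months from the age of 19 months, and control mice ate the same chow with the Eudragit coating alone, so that all were 25 months old when killed. The mice were not fasted, and the levels are those of whole liver, in which fewer cells of a type and less RNA per cell cannot be told apart.

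The transcription factor p53 is held at a low level by Mdm2, which marks it for degradation, and accumulates after DNA damage and other stress. It then switches on Cdkn1a, whose product p21 halts the cell cycle by inhibiting cyclin-dependent kinases, together with Ccng1, Gadd45a, Btg2, Bax and Mdm2 itself. Cdkn2a, which encodes p16 and p19ARF, and its neighbour Cdkn2b, which encodes p15, are the classical marks of senescence, a lasting arrest of division. Hepatocytes of the adult liver divide rarely, and p21 is known there as a brake on division that also responds to feeding, glucocorticoids and injury.

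The sequence that p53 binds is built of paired half-sites of 10 bases, and its matches in the promoter windows of these genes are shown here. RefSeq promoter windows of 300 bases (250 before to 50 after the start of transcription, build GRCm38.p6) were searched on both strands for the p53 half-site, whose consensus reads the same on both strands. Of the 13 windows of the 10 genes, 5 held a half-site, and 8.36% of all 32851 windows did. No window of Cdkn2a, Cdkn2b, Gadd45b, Btg2 or Gdf15 held one. The upstream window of Cdkn1a (chr17:29090729-29091028, plus strand) is printed whole, 5′ to 3′, with its 2 half-sites in capitals. They begin 73 and 51 bases before the start.
Cdkn1a: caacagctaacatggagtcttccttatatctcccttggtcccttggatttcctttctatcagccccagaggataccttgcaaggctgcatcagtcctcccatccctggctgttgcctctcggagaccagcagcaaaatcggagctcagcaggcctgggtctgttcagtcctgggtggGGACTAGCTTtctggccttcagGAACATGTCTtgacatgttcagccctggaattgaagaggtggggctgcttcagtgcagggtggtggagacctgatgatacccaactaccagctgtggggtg
Both half-sites lie within 13 bases of each other, the spacing this search took as a full element, which 1 of the 13 windows and 0.0731% of all windows held. Only exact matches were marked. The bases just after the second half-site, tgacatgttc, miss the consensus at 1 base, so the pairing shown need not be the one p53 uses. The other Cdkn1a window, further downstream (chr17:29093519-29093818), held no half-site. The other half-sites are given with 10 bases on each side, with the half-site in capitals, to show how the same motif reads in the other genes. They begin 185 bases before the start of Ccng1 (window chr11:40755237-40755536), 186 before that of Mdm2 (chr10:117710709-117711008), 40 before that of Gadd45a (chr6:67037358-67037657) and 201 before that of Bax (chr7:45466849-45467148), all on the minus strand of the genome and written along the gene.
Ccng1: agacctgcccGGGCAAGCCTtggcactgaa
Mdm2: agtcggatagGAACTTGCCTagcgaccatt
Gadd45a: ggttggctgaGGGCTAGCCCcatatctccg
Bax: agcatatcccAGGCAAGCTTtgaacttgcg
A match of these letters is a description of the window and says nothing of whether p53 was bound in these livers.

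Levels are log2 of the deposited signal after quantile normalization over all probes and arrays, and a difference of 1 on this scale is a doubling of the normalized signal. A probe was taken as detected on an array at a detection p under 0.05, and probes detected on at least 9 of the 42 arrays were tested with limma, 12719 probes in all. A transcript passed the test where its adjusted p was under 0.05 and its log2 ratio over 0.15 in either direction. Of the 15 probes, 13 for all 7 genes were tested, and 9 of them were detected on all 42 arrays. The second Cdkn2a probe (ILMN_1226950) was detected on 3 arrays and the third Mdm2 probe (ILMN_1229882) on 7, and neither was tested. On the arrays the median signal was 159 to 188 in Rapa males and 146 to 172 in control males, against 111 to 154 in Rapa females and 111 to 152 in control females, so array brightness and sex cannot be told apart. Over the 9720 probes that no array detected, control females 6 to 9 were set off from all other mice (r of at least 0.373 with each other, against at most 0.294 for any other pair), and values without them are given beside the main results. The hepatocyte markers averaged 13.93 ± 0.08 in Rapa females, 13.98 ± 0.10 in control females, 13.86 ± 0.08 in Rapa males and 13.80 ± 0.10 in control males (SD of the log2 level), with all 7 detected. Neutrophil markers ranged from 7.58 to 11.71 in Rapa females and from 7.66 to 12.06 in control females, a wide spread within each group. In Rapa males they ranged from 7.65 to 9.18 and in control males from 7.44 to 8.79. Between control males and control females, 6 of 10 neutrophil markers were lower in males (median ratio -1.57). So were 5 of 8 Kupffer cell and macrophage markers (-0.57), 2 of 7 sinusoidal endothelial markers (-0.31) and 2 of 7 hepatocyte markers (-0.04). Of all tested genes, each by its brightest probe, 19.1% were lower in control males. Between Rapa males and Rapa females these numbers were 5 of 10 (-1.43), 1 of 8 (-0.30), 1 of 7 (-0.19) and 0 of 7 (-0.10), against 17.1% of genes. Not all cell types were lower in males. With Rapa, 3 of 8 stellate cell and fibroblast markers were higher in males and 1 was lower (0.17). Of the T and NK cell markers 1 of 5 was higher (0.17), and of all tested genes 15%. Between Rapa females and control females, 0 of 10 neutrophil, 1 of 8 Kupffer cell and 2 of 7 endothelial markers were lower with Rapa (medians 0.05, -0.06 and -0.22). Of the hepatocyte markers 2 of 7 were lower (-0.01) and of the B and plasma cell markers 0 of 5 (-0.54). Among all tested genes 9.28% were lower with Rapa in females. The part of these cells or of the signal of the arrays in the levels below was not tested.

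With Rapa, 1 of the 13 probes passed the test in females, a probe for Mdm2 that was higher, where 21.6% of all tested probes passed and 12.2% were higher. In males 0 of 13 passed, against 0.653% of all tested probes by limma, and 2 had an unadjusted p under 0.05, where 12.8% of all did. The methods' t-test also called 0 of 13 in males. The ratios of the 13 probes lay between -0.14 and 0.53 in females and between -0.12 and 0.43 in males. Their medians were 0.072 and 0.032, against 0.023 and -0.005 over all tested probes. The groups overlapped at every probe in both sexes, and the groups of 1.79% of all tested probes did not overlap in females and of 0.0472% in males. The effect of the diet differed between the sexes at 1 of 13 probes, again the one for Mdm2, and at 20.4% of all tested probes, 11.9% in the direction of Mdm2.

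**Figure D1:**
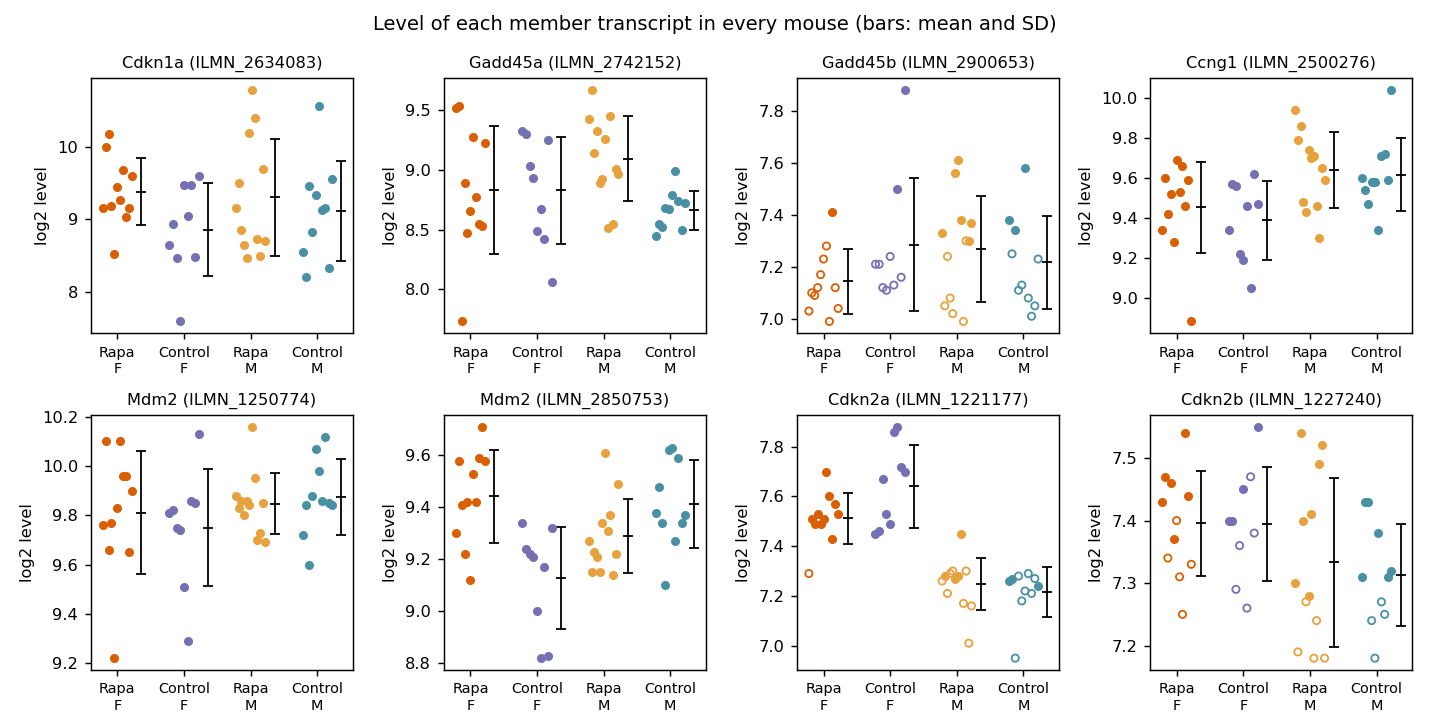
Log2 level (vertical axis) of the brightest tested probe of each of the 7 genes, and of a second Mdm2 probe, in every mouse of the 4 groups; filled points are detected, open points are not, and the bars are the mean and SD. Cdkn1a spread most between mice of a group, Mdm2 ILMN_2850753 averaged 9.44 in Rapa females against 9.13 in control females, and the levels of Cdkn2a, Cdkn2b and Gadd45b lay near the detection limit.

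Cdkn1a was the most variable of these genes between mice of a group, and no difference between its diet groups passed the test. The gene lies at chr17:29090979-29100722 (GRCm38.p6, as for all positions here). Its brightest probe (ILMN_2634083) was detected on all arrays. In Rapa females the level was 8.52 at the lowest (mouse 5), 9.26 at the median and 10.17 at the highest (mouse 3), and in control females 7.59 (mouse 4), 8.94 and 9.60 (mouse 9). In Rapa males it was 8.46 (mouse 5), 9.01 and 10.78 (mouse 7), and in control males 8.20 (mouse 2), 9.14 and 10.56 (mouse 6). All 4 ranges overlapped, and within the control males the extremes differed 5.14-fold in normalized signal. The difference between diets was 0.53 in females (SE 0.29, 95% interval -0.06 to 1.11, adjusted p = 0.191), with 10 of 11 Rapa females above the control mean, and 0.19 in males (SE 0.27, -0.36 to 0.75, adjusted p = 0.839). Neither passed the test, and the interval in females runs from 0.961-fold to 2.16-fold. Without control females 6 to 9 the value in females was 0.76 (SE 0.35, adjusted p = 0.203), and between control females 1 to 5 and Rapa females 1 to 4 alone it was 1.00 (SE 0.35, adjusted p = 0.24), so its size depended on which mice were compared.

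The spread of Cdkn1a was seen by both probes that every array detected. The pooled SD between mice of a group was 0.67 for ILMN_2634083, above that of 98.1% of all tested probes, whose median SD was 0.17. It was 0.39 for ILMN_2846775. With group means removed, these 2 probes followed each other over the 42 mice at a Pearson r of 0.91 (Spearman's rho 0.88; both adjusted permutation p 1.6e-05 over 8 probe pairs, unadjusted 1e-05, the smallest that 100000 resamples can give). Without the 2 mice farthest from the median r was 0.87. The dimmest probe, ILMN_2846776, was detected in males alone, where its r with ILMN_2634083 was 0.97 in Rapa males and 0.92 in control males. Rapa males 6, 7 and 8 and control male 6 were the high males at all 3 probes. At ILMN_2846775, control male 6 had 9.08 where the other control males had 7.62 to 8.36, and at ILMN_2846776 it had 7.93 where the others had 6.98 to 7.49.

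The 2 dimmer Cdkn1a probes gave diet ratios of 0.07 (adjusted p = 0.803) and 0.16 (adjusted p = 0.354) in females, and of 0.20 (adjusted p = 0.661) and 0.10 (adjusted p = 0.781) in males. The female ratio of ILMN_2846775 without control females 6 to 9 was 0.27 (SE 0.20, adjusted p = 0.492), and between control females 1 to 5 and Rapa females 1 to 4 alone it was 0.38 (SE 0.12, adjusted p = 0.172). For ILMN_2846776 these values were 0.21 (adjusted p = 0.473) and 0.29 (adjusted p = 0.119). ILMN_2846776 was detected on 0 of 11 Rapa female and 0 of 9 control female arrays, and on 5 of 12 Rapa male and 5 of 10 control male arrays. Its female values are therefore only a bound, and it passed the filter through the males.

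**Figure D2:**
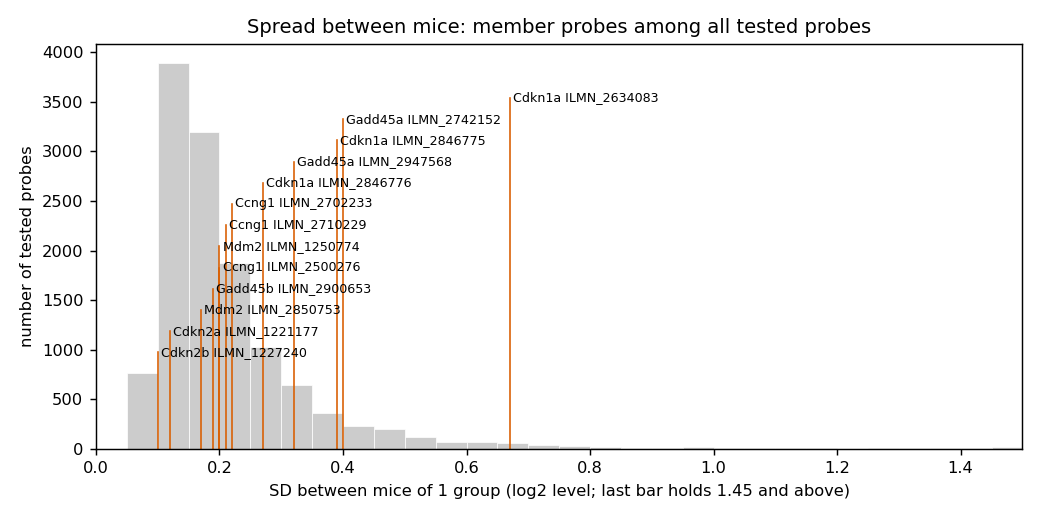
Number of tested probes (vertical axis) by their pooled SD between mice of 1 group (horizontal axis, log2 level; grey bars), with an orange line at the SD of each of the 13 probes of these genes. The 3 Cdkn1a probes lie at 0.67, 0.39 and 0.27 and the Gadd45a probes at 0.40 and 0.32, to the right of the median of 0.17, and the Cdkn2b and Cdkn2a probes at 0.10 and 0.12 lie to its left.

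Mdm2, the ubiquitin ligase that degrades p53 and is itself switched on by it, was the gene with a probe that passed in females (chr10:117688875-117710758). At ILMN_2850753 the level in Rapa females was 9.12 at the lowest (mouse 6), 9.42 at the median and 9.71 at the highest (mouse 10), and in control females 8.82 (mouse 6), 9.21 and 9.34 (mouse 1). In Rapa males it was 9.14 (mouse 10), 9.25 and 9.61 (mouse 7), and in control males 9.10 (mouse 4), 9.37 and 9.63 (mouse 6). Control females were the lowest group, and 10 of 11 Rapa females lay above their mean, although the groups overlapped. The ratio in females was 0.32 (SE 0.08, 95% interval 0.16 to 0.47, 1.24-fold, adjusted p = 0.00228). In males it was -0.12 (SE 0.07, -0.27 to 0.03, adjusted p = 0.509), and the difference between the sexes was 0.44 (SE 0.11, adjusted p = 0.00252).

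The rise did not pass without the control females that were set off from the other mice. Control females 6 and 8 had the lowest levels, 8.82 and 8.83. Without control females 6 to 9 the ratio was 0.24 and did not pass (adjusted p = 0.0841, where 7.01% of all tested probes still passed), and between control females 1 to 5 and Rapa females 1 to 4 alone it was 0.17 (adjusted p = 0.458). The difference between the sexes still passed without control females 6 to 9, at 0.36 (adjusted p = 0.0297). There 1139 of the 12719 tested probes passed. With 3 components of the undetected probes in the fit it was 0.24 (SE 0.15) and did not pass (adjusted p = 0.406).

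The brighter Mdm2 probe gave no difference that passed. At ILMN_1250774 Rapa females averaged 9.81 ± 0.25 and control females 9.75 ± 0.24 (SD), a ratio of 0.06 (SE 0.09, 95% interval -0.12 to 0.24, adjusted p = 0.666). Rapa males averaged 9.85 ± 0.12 and control males 9.88 ± 0.15, a ratio of -0.03 (adjusted p = 0.932). The 2 probes were correlated over the 42 mice with group means removed at r = 0.42 (rho 0.44, adjusted permutation p = 0.0107 and 0.00579; r = 0.39 without the 2 mice farthest from the median), and at 0.19 within the Rapa females. The transcripts that each probe matches were not analysed here. The dim probe ILMN_1229882 was detected on 4 of 11 Rapa female, 2 of 9 control female, 1 of 12 Rapa male and 0 of 10 control male arrays.

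**Figure D3:**
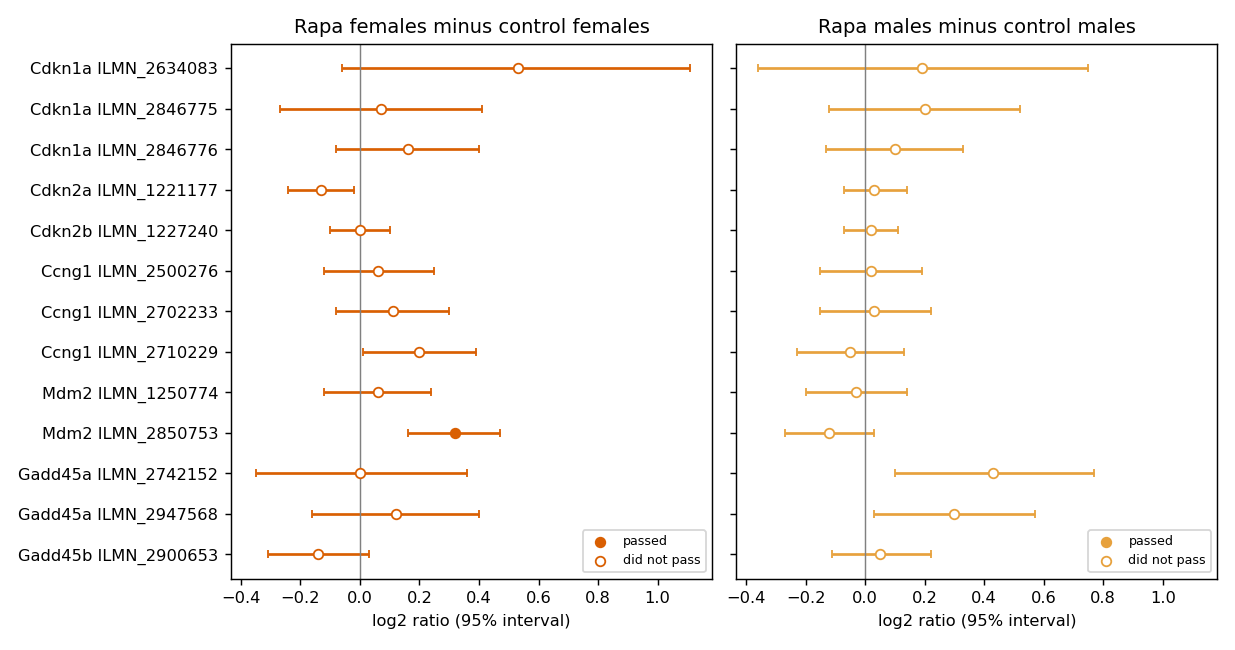
Log2 ratio of Rapa to control (horizontal axis) with its 95% interval for the 13 tested probes (rows), in females on the left and in males on the right; filled points passed the test. In females Mdm2 ILMN_2850753 at 0.32 is the only filled point, the widest interval is that of Cdkn1a ILMN_2634083 (-0.06 to 1.11), and no point is filled in males, where Gadd45a ILMN_2742152 stands at 0.43.

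Ccng1 encodes cyclin G1, which brings a phosphatase to Mdm2 and is a well-known p53 target (chr11:40748552-40755309). Its 3 probes were detected on all arrays at mean levels of 9.53, 9.08 and 8.59. The highest ratio in females was at ILMN_2710229, where Rapa females averaged 9.14 ± 0.26 and control females 8.94 ± 0.22 (SD), a ratio of 0.20 that did not pass (SE 0.09, adjusted p = 0.124). Without Rapa female 11, the lowest mouse of its group at 8.63, it was 0.25 and passed (adjusted p = 0.0379), and without control females 6 to 9 it was 0.11 (adjusted p = 0.65). The other probes had ratios of 0.06 (adjusted p = 0.651) and 0.11 (adjusted p = 0.44). In males the 3 ratios were 0.02, 0.03 and -0.05, with adjusted p-values of 0.956, 0.934 and 0.869. Rapa female 11 was the lowest mouse of its group at all 3 probes.

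Gadd45a and Gadd45b encode small stress proteins that bind growth arrest and MAP kinase partners. Gadd45a lies at chr6:67035096-67037407 and Gadd45b at chr10:80930091-80932204. For Gadd45a ILMN_2742152, the level in Rapa males was 8.51 at the lowest (mouse 8), 9.07 at the median and 9.67 at the highest (mouse 2), and in control males 8.45 (mouse 1), 8.67 and 8.99 (mouse 7). In Rapa females it was 7.73 (mouse 3), 8.77 and 9.54 (mouse 2), and in control females 8.06 (mouse 9), 8.93 and 9.33 (mouse 1). The control males were close together (SD 0.16) and the other groups were spread (0.35 to 0.54). The ratio in males was 0.43 (SE 0.17, unadjusted p = 0.0123, adjusted p = 0.231), with 10 of 12 Rapa males above the control mean, and in females 0.00 (SE 0.17, adjusted p = 0.991). The second probe, ILMN_2947568, gave 0.30 in males (SE 0.13, adjusted p = 0.314) and 0.12 in females (adjusted p = 0.582). None of these passed, nor did the difference between the sexes (-0.43 and -0.18, adjusted p = 0.212 and 0.548). When control females 6 to 9 were left out, the female ratios were -0.18 (adjusted p = 0.684) and -0.04 (adjusted p = 0.931), and the differences between the sexes -0.61 (adjusted p = 0.134) and -0.34 (adjusted p = 0.342). With array weights in the fit, the male ratio of ILMN_2742152 was 0.46 and the difference between the sexes -0.62, and both passed.

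Both Gadd45a probes marked the same females. Rapa female 3, at 7.73 and 7.69, and control female 9, at 8.06 and 7.62, were the lowest of their groups at both. These mice were also the highest of their groups for Cdkn1a ILMN_2634083. The 2 mice do not stand for a trend. Across all 42 mice with group means removed, this Cdkn1a probe and Gadd45a ILMN_2742152 had r = -0.13 (adjusted permutation p = 0.621). Within groups r ranged from -0.65 in control females to 0.51 in control males. Over the 42 mice with group means removed, the 2 Gadd45a probes were correlated at r = 0.82 (rho 0.77, both adjusted permutation p 1.6e-05; r = 0.75 without the 2 farthest mice), and at 0.18 within the control males.

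Gadd45b was near the detection limit. Its probe was detected on 1 of 11 Rapa female, 2 of 9 control female, 6 of 12 Rapa male and 3 of 10 control male arrays, at a mean of 7.14 ± 0.12, 7.29 ± 0.25, 7.27 ± 0.20 and 7.22 ± 0.18 in that order (SD). The lowest level at which probes were detected was 7.33 for the median array. The ratio was -0.14 in females (adjusted p = 0.243; -0.03, adjusted p = 0.882, without control females 6 to 9) and 0.05 in males (adjusted p = 0.857). Control female 9 stood above its group, at 7.88 where the other 8 had 7.11 to 7.50.

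Among the 3 stress-induced members, the pair of Cdkn1a and Gadd45b passed by 1 of 2 measures of correlation. Over the 42 mice together, Gadd45a was not positively correlated with either. The Gadd45b probe was detected on 12 of the 42 arrays, so most of its values were not above background. The brightest tested probes of the 7 genes were compared in 21 pairs over 42 mice with group means removed, by permutation within groups. The pair of Cdkn1a and Gadd45b passed by Pearson's r, at 0.51 (permutation p = 0.00161, adjusted p = 0.0338), and not by Spearman's rho, at 0.39 (permutation p = 0.0168, adjusted p = 0.0882). Without the 2 mice farthest from the median r was 0.37, and without control females 6 to 9 it was 0.47 (adjusted p = 0.0819). Within groups r was -0.41 in Rapa females, 0.66 in control females, 0.70 in Rapa males and 0.54 in control males, so its sign was opposite in Rapa females. No other pair passed. The next were Cdkn2b with Gadd45b at 0.44 (adjusted p = 0.0626), Gadd45a with Gadd45b at -0.38 (0.0703) and Cdkn1a with Mdm2 at 0.36 (0.0703). Cdkn1a and Ccng1, both p53 targets, had r = 0.13 (adjusted p = 0.621), and Cdkn1a and Cdkn2a r = 0.11 (adjusted p = 0.621). Cdkn1a and Gadd45a had r = -0.13 (adjusted p = 0.621), and its sign differed between groups. It was -0.05 in Rapa females, -0.65 in control females, -0.06 in Rapa males and 0.51 in control males.

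**Figure D4:**
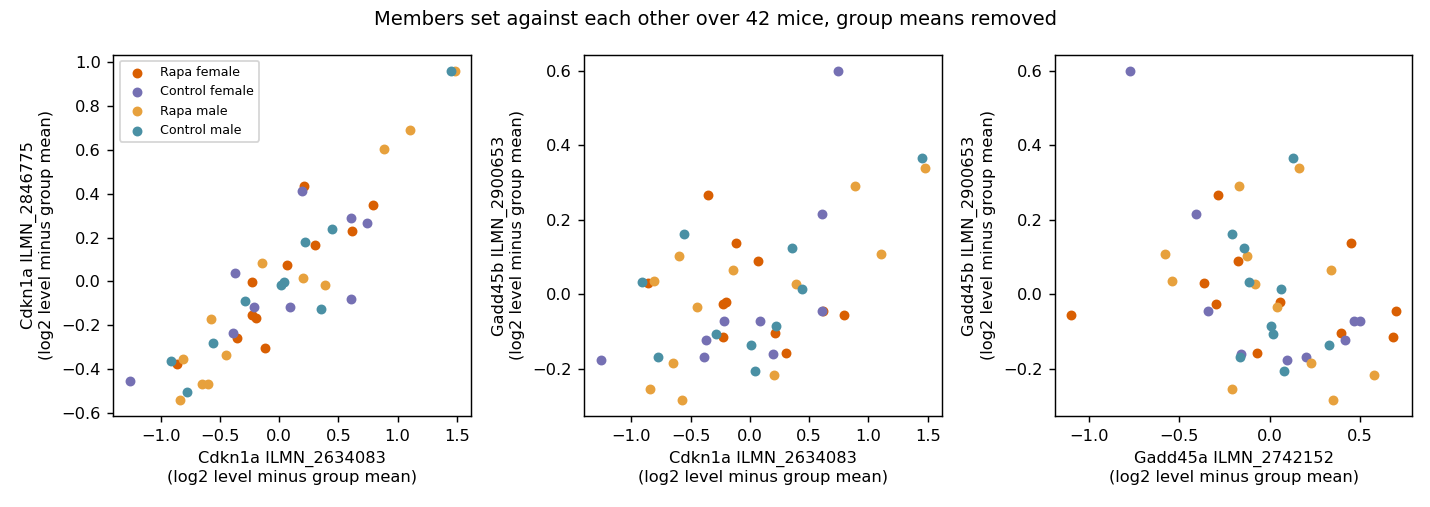
Log2 levels minus the group mean for 42 mice (points, coloured by group): Cdkn1a ILMN_2846775 against Cdkn1a ILMN_2634083 (r = 0.91), Gadd45b against Cdkn1a (r = 0.51) and Gadd45b against Gadd45a (r = -0.38). The pair of Cdkn1a probes lies along a line, while the other panels are loose clouds.

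The senescence marks Cdkn2a and Cdkn2b showed no change with diet that passed the test. They lie side by side on chromosome 4, Cdkn2a at chr4:89274473-89294619 and Cdkn2b at chr4:89306289-89311032. Cdkn2a ILMN_1221177 was detected on 10 of 11 Rapa female, 9 of 9 control female, 4 of 12 Rapa male and 3 of 10 control male arrays. Its level was 7.29 at the lowest, 7.51 at the median and 7.70 at the highest in Rapa females, and 7.45, 7.67 and 7.88 in control females. The ratio was -0.13 in females (SE 0.06, 95% interval -0.24 to -0.02, adjusted p = 0.0878), with 10 of 11 Rapa females below the control mean. Control females 6 to 9 had 7.70 to 7.88, above the other 5 at 7.45 to 7.67, and without them the ratio was -0.01 (adjusted p = 0.967). In males the levels were 7.01, 7.28 and 7.45 with Rapa and 6.95, 7.25 and 7.29 on the control diet, a ratio of 0.03 (adjusted p = 0.865). Cdkn2b was detected on 6 of 11, 4 of 9, 7 of 12 and 6 of 10 arrays of Rapa females, control females, Rapa males and control males. Its ratios were 0.00 in females (95% interval -0.10 to 0.10, adjusted p = 0.988) and 0.02 in males (-0.07 to 0.11, adjusted p = 0.91). Its SD of 0.10 between mice was lower than that of most tested probes. Cdkn2a averaged 7.39 and Cdkn2b 7.36, near the lowest detected level of 7.33 for the median array. Small changes could not be measured there, so the narrow intervals and SD do not exclude a change in the transcripts. The platform annotation does not say which of p16 and p19ARF the Cdkn2a probes match.

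Between the sexes, 3 of 13 probes differed on the control diet, 2 higher and 1 lower in males, where 40.2% of all tested probes differed, 22.5% higher and 17.7% lower. With Rapa it was 1 of 13, lower in males, where 32.2% of all did and 16.3% were lower. The lower one was Cdkn2a ILMN_1221177 on both diets, which passed the detection filter through the females and was above background on 4 of 12 Rapa male and 3 of 10 control male arrays only. The fitted ratio of males to females was -0.42 on the control diet (SE 0.06, adjusted p = 1.3e-07) and -0.26 with Rapa (SE 0.05, adjusted p = 8.98e-05). Most male values were not above background, so the size of this ratio was not settled, and with background correction the same ratios were -1.04 and -0.67. Control males (6.95 to 7.29) and control females (7.45 to 7.88) did not overlap, as at 6.48% of all tested probes, while Rapa males and Rapa females did, as at all but 2.69% of tested probes. Without control females 6 to 9 the difference on the control diet was -0.30 (adjusted p = 0.000168).

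In the signals before normalization the sexes overlapped at this probe. The median signal was 157 in control males (136 to 172) and 164 in control females (129 to 253), and 172 in Rapa males (152 to 197) and 171 in Rapa females (117 to 206). Over the 9720 probes that no array detected, 5.05% also passed between control males and control females, 394 of these 491 lower in males, and 4.4% between Rapa males and Rapa females. The part of array brightness in the Cdkn2a difference was not tested apart from sex. With 3 components of the undetected probes in the fit, the difference was 0.16 on the control diet (SE 0.31) and 0.36 with Rapa (SE 0.26). Neither passed. In this fit 0 of all tested probes passed between the control sexes, and the SEs were far larger than in the main fit. It therefore cannot decide the size or sign of the difference.

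Mdm2 ILMN_2850753 was higher in control males, at 9.41 ± 0.17, than in control females, at 9.13 ± 0.20 (SD; ratio 0.28, SE 0.08, adjusted p = 0.0032). With Rapa males averaged 9.29 ± 0.14 and females 9.44 ± 0.18 (ratio -0.15, adjusted p = 0.0909). Ccng1 ILMN_2500276 averaged 9.62 ± 0.18 in control males and 9.39 ± 0.20 in control females (ratio 0.23, SE 0.09, adjusted p = 0.0398), and 9.64 ± 0.19 and 9.45 ± 0.23 in Rapa males and Rapa females (ratio 0.19, adjusted p = 0.0758). Without control females 6 to 9 neither difference on the control diet passed (Mdm2 0.21, adjusted p = 0.0711, and Ccng1 0.24, adjusted p = 0.0967). The call for Ccng1 was also lost without any 1 of control males 7, 8 and 10 or control females 1, 4, 5 and 7, where its ratio was 0.18 to 0.22.

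The genes around these members were described by lists, each gene by its brightest tested probe. Beside them, 20.8% of the 8903 tested genes passed in females (11.5% higher, 9.28% lower) and 0.573% in males. An unadjusted p under 0.05 was found at 35% of all tested probes in females and 12.8% in males. Of 33 other p53 targets tested, 5 rose and 2 fell in Rapa females, and 0 of 33 passed in males (limma; 5 had an unadjusted p under 0.05). The 4 with the lowest adjusted p in females were Xpc, which senses damaged DNA (0.32, SE 0.05, adjusted p = 1.75e-05), Rchy1, a ubiquitin ligase for p53 (-0.30, adjusted p = 0.0148), Ppm1d, the phosphatase that turns the p53 response off (0.18, adjusted p = 0.0187), and Zmat3, an RNA-binding p53 target (0.24, adjusted p = 0.0205). The median over the list was 0.07, against 0.02 over all genes. Without control females 6 to 9, 2 of 33 passed, Xpc (0.24, adjusted p = 0.00925) and Ppm1d (0.21, adjusted p = 0.0368), where 6.6% of genes passed. In males the lowest were Fbxw7 (-0.17, adjusted p = 0.162) and Ercc5 (0.14, adjusted p = 0.184).

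Of 19 genes for regulators of p53, 5 rose and 1 fell in Rapa females. Trp53bp2, whose product binds p53 (0.31, SE 0.06, adjusted p = 0.000152), Usp7, which removes ubiquitin from Mdm2 and p53 (0.30, adjusted p = 0.000881), the deacetylase Sirt1 (0.31, adjusted p = 0.000964) and the Mdm2 partner Daxx (0.28, adjusted p = 0.00455) had the lowest adjusted p. With control females 6 to 9 left out, Trp53bp2 alone passed (0.23, adjusted p = 0.0384), while Sirt1 at 0.23 (adjusted p = 0.0852) and Usp7 at 0.21 (adjusted p = 0.0594) kept ratios of similar size and Daxx was at 0.09 (adjusted p = 0.548). In males 1 of 19 passed, the acetyltransferase Ep300, which was lower by -0.24 (SE 0.06, adjusted p = 0.0365) with all 12 Rapa males below the control mean. No tested probe was named Trp53, the gene for p53 itself, or Mdm4.

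Of 18 cell cycle inhibitors, cyclins, kinases and Rb and E2F genes, 0 rose and 2 fell in Rapa females, Cdkn2d, the gene for the inhibitor p19INK4d (-0.20, adjusted p = 0.0128), and Ccng2, the relative of Ccng1 (-0.34, adjusted p = 0.0246). Neither passed without control females 6 to 9 (-0.10, adjusted p = 0.42, and -0.21, adjusted p = 0.364). In males 0 of 18 passed by limma, and 4 had an unadjusted p under 0.05, where 12.8% of all tested probes did. Rb1 (0.24, adjusted p = 0.234) and Ccnd1 (0.82, SE 0.34, adjusted p = 0.268) were the lowest by adjusted p. Of 14 relatives of Gadd45, Btg and Bax, 2 rose in Rapa females, Bcl2l2, a survival factor of the Bcl2 family (0.35, adjusted p = 0.00161), and Tob2, of the Btg family (0.32, adjusted p = 0.0123), and none did without control females 6 to 9. In males 0 of 14 passed by limma or had an unadjusted p under 0.05.

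Of 24 factors secreted by senescent cells and nuclear markers of senescence, 0 passed in either sex by limma. An unadjusted p under 0.05 was found for 4 in females and 3 in males, against 35% and 12.8% of all tested probes. The lowest adjusted p-values were those of the chemokines Ccl5 (-0.98, SE 0.40, adjusted p = 0.0723) and Ccl8 (-0.46, SE 0.20, adjusted p = 0.0988) in females, which were -0.38 and -0.09 without control females 6 to 9. In males they were those of Igfbp7 (0.40, SE 0.13, adjusted p = 0.164) and Timp1 (0.29, SE 0.13, adjusted p = 0.314). The median ratio of the list was -0.03 in females and 0.06 in males.

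Cdkn1a and the Gadd45 genes also answer to stress signals, hormones and time of day. Of 23 immediate early and stress-induced genes, 1 rose in Rapa females, the MAP kinase phosphatase Dusp6 (0.33, SE 0.12, adjusted p = 0.0481). Without control females 6 to 9 its ratio was 0.27 (adjusted p = 0.288). In males 0 of 23 passed by limma, and 2 had an unadjusted p under 0.05, where 12.8% of all tested probes did. Of 13 glucocorticoid and clock genes, the clock genes Per1 (0.49, adjusted p = 0.0209) and Per2 (0.55, adjusted p = 0.0269) rose in Rapa females, and the fasting genes Pck1 (-0.91, adjusted p = 0.0141) and Igfbp1 (-0.89, adjusted p = 0.0281) fell. None of these 4 passed without control females 6 to 9, where the ratios were 0.58 for Per1 (adjusted p = 0.0556), 0.43 for Per2 (adjusted p = 0.286), -0.30 for Pck1 (adjusted p = 0.625) and -0.48 for Igfbp1 (adjusted p = 0.471). In males 0 of 13 passed by limma or had an unadjusted p under 0.05.

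The genes most like each member over the 42 mice, with group means removed, are given as a description with no test, since all points share their arrays. For Cdkn1a they were Cercam (r = 0.71), Spon2, a secreted matrix protein (0.71), and Grhl1, a transcription factor (0.70). For Mdm2 ILMN_1250774 they were the valyl-tRNA synthetase Vars (0.78), Kansl2 (0.73) and the splicing helicase Dhx38 (0.70). For Gadd45a they were the inhibitory Smad6 (0.65), the cysteine desulfurase Nfs1 (0.65) and malic enzyme Me1 (0.62), and for Gadd45b the actin regulator Wdr1 (0.78), the DNA ligase Lig1 (0.77) and Mfge8 (0.76). Ccng1 was most like Entpd5 (0.60), Dram2 (0.60) and Osbpl3 (0.59), Cdkn2a like Hpdl (0.71), Trub1 (0.71) and Pfkl (0.69), and Cdkn2b like Lxn (0.61), Alcam (0.61) and Mob3a (0.60). None of these 21 genes belongs to the lists above. Gadd45b had the most company, with 771 tested probes at r over 0.5, against 267 for Cdkn1a and 28 for Ccng1.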

How the data were processed

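The authors read the mean bead intensity per probe in Genome Studios and deposited it unnormalized for 25697 probes. They also deposited a detection score, a fraction, and 1 minus this score served as the detection p. The authors also deposited log2 values, quantile-normalized in Matlab, for 17082 probes, which were used as an alternative and to choose the probes. Columns of the authors' own comparisons were not used. Signals were log2-transformed and quantile-normalized over all probes and 42 arrays. Group means were fitted with limma 3.58.1 in R 4.3.3 (statmod 1.5.0 for blocks) on all arrays, and p-values were adjusted by Benjamini-Hochberg over 12719 tested probes. A log2 ratio of 0.15 is 1.11-fold. Correlations used permutation within groups (numpy 2.4.6, scipy 1.17.1). The test was checked on simulated data.

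The 10 genes, the lists and the tests were chosen with earlier results of these data known. All member probes are named, with up to 4 genes per list and diet comparison that passed, by lowest adjusted p, or otherwise the 2 lowest, and the 3 genes most like each member. Of 275 list and marker symbols, 229 had a probe. Alternatives were other normalizations, filters, tests, blocks and thresholds and leaving out mice. No source used here names the slides, so no slide block was fitted. Separate mice are the replicates, and the number of arrays limits the precision.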

Additional observations from a re-analysis of the deposited data

Results flagged for a closer look

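Of 30 groups of 9 or 10 mice checked, 4 held a mouse far from the others, where chance marks about 1 group in 20. These groups were the same 9 control females and 10 control males at different probes, and the Rapa groups were not checked. They were not independent, so 4 of 30 does not measure an excess. Of the 4, 2 were the same mouse at Cdkn1a probes that had r = 0.97 within control males. Control male 6 had a Cdkn1a level of 9.08 at ILMN_2846775 (others 7.62 to 8.36) and of 7.93 at ILMN_2846776 (others 6.98 to 7.49), and at the brightest Cdkn1a probe it was the highest control male too, at 10.56. Control male 3 had a Cdkn2a level of 6.95 (others 7.18 to 7.29), at which the probe was not detected. Control female 9 had a Gadd45b level of 7.88 (others 7.11 to 7.50), and this mouse is among those set off from the others on undetected probes.

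The effect of Rapa on Mdm2 ILMN_2850753 differed between the sexes by 0.44 on the log2 scale (limma, adjusted p = 0.00252), with a ratio of 0.32 in females and -0.12 in males. The other Mdm2 probe differed by 0.09 (adjusted p = 0.649). At ILMN_2850753 the difference was 0.36 without control females 6 to 9 (adjusted p = 0.0297). With 3 components of the undetected probes in the fit it was 0.24 and did not pass (adjusted p = 0.406).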

How the results depend on the processing

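Without any 1 mouse the count of member probes that passed was 1 to 2 in females, 0 in males, 1 for the difference between the sexes, 2 to 4 between the control sexes and 1 to 3 between the Rapa sexes. The second call in females was Cdkn2a (-0.15) without control female 1 or 2, or Ccng1 ILMN_2710229 without Rapa female 11. The authors' log2 values and background correction with an offset of 16 gave the same counts as the values reported, although background correction moved the Cdkn2a ratio of males to females to -1.04 on the control diet and -0.67 with Rapa.

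Median centring, which put the median ratio of all probes at -0.128 in males, 0.057 in females, 0.186 for the difference between the sexes and 0.143 between the control sexes, gave 1 member in males (Mdm2 ILMN_2850753, -0.33), 3 for the difference and 7 between the control sexes, and 2370 and 4675 of all probes in males and for the difference. Array weights gave 1 in males, 2 for the difference and 5 between the control sexes, with 1822 and 491 of all probes in females and males. The methods' t-test and a fit on the compared groups alone gave 2 in females, adding Cdkn1a ILMN_2846776, which no female array detected. Probes detected on all arrays gave 0 between the Rapa sexes, since this filter drops Cdkn2a ILMN_1221177, detected on 26 arrays. No filter or detection on 1 array gave 2 there, where the 2 member probes left out of the main fit were also tested. Detection on all arrays also gave 1778, 30, 1562, 2638 and 2596 of all probes in the 5 comparisons, and the looser filters 143 and 134 in males. One probe per gene gave 0 in females and for the difference, since it drops Mdm2 ILMN_2850753, with 1809 and 46 of all probes in females and males and 1598 for the difference. An adjusted p under 0.01 with a log2 ratio over 1 left 0 members in every comparison, and 48, 0, 136, 158 and 101 of all probes in females, in males, for the difference, between the control sexes and between the Rapa sexes.

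Without control females 6 to 9 the counts were 0 in females and 1 between the control sexes, 0 member pairs passed the correlation test, and 892, 170, 1139 and 3267 of all probes passed in females, in males, for the difference and between the control sexes. Control females 1 to 5 with Rapa females 1 to 4 alone gave 0 in females and 169 of all probes. Adding 3 components of undetected probes to the fit gave 0 members for the difference and in both sex comparisons. Of all probes, 0 passed in males, 558 for the difference, 0 between the control sexes and 313 between the Rapa sexes. In this fit Cdkn2a was 0.16 (SE 0.31) between the control sexes and 0.36 (SE 0.26) between the Rapa sexes. Mdm2 ILMN_2850753 was -0.66 (SE 0.47) between the control sexes. With such SEs these signs were not settled, and the cause was not tested.

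Same-numbered mice shared only a number (r of deviations -0.37 to 0.49 over 9 female pairs and -0.50 to 0.32 over 10 male pairs). With the replicate block, whose correlation was 0.001, the counts were 1 in females, 0 in males, 1 for the difference, 3 between the control sexes and 1 between the Rapa sexes. With neighbouring animal numbers grouped in a block, 4 of all probes passed in males and Ccng1 ILMN_2500276 did not pass between the control sexes (0.24). Dim probes (Cdkn2a, Cdkn2b, Gadd45b) lay near the lowest detected level, where small changes could not be measured.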
